A study of Danio rerio with 6 samples.

Results

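The RNA described here came from heads of wild-type larvae of the zebrafish, Danio rerio, taken 3 days after fertilization. These larvae were the siblings of homozygotes for srrm4[y712], an allele of the splicing regulator srrm4, and the 3 wild-type libraries were taken by genotype label from a series of 6. Each library carries a replicate number from 1 to 3. The labels do not say whether the replicates came from separate clutches, or how many heads went into a library. The labels' protocols name a Zymo Direct-zol and a Qiagen RNeasy kit as alternatives for RNA extraction, and a stranded TruSeq kit that selects polyadenylated RNA. No source used here gives the extraction kit of each library, the annotation, or whether counting used strand.

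The head of a zebrafish larva at this age holds a regionalised brain with differentiated neurons and dividing progenitors, eyes with a layered retina and a lens packed with crystallins, and inner ears with otoliths and hair cells. The jaw and gill arches are still mainly cartilage, and a thin epidermis covers the whole head. Jaw, eye and body wall muscles, the heart and circulating embryonic red blood cells lie in or next to the tissue a cut behind the head would take, while liver, gut, pronephric tubules and tail lie mainly behind it.

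Levels are given as CPM, a gene's counts per 1000000 counts of its library. The totals were 75932582, 95887087 and 101032166 counts in wild-type replicates 1, 2 and 3, so that 3 counts, taken as the floor, correspond to 0.0395, 0.0313 and 0.0297 CPM. No transcript lengths were used here, so a comparison between genes is one of reads taken, to which long transcripts contribute more, and not of molecules. In bulk tissue, fewer cells of a type and less RNA per cell cannot be told apart. No contrast between genotypes was made and no p-value is given. The SD over 3 libraries is the measure of error.

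Replicate 1 stood apart from the other 2 wild-type libraries, and this touches most values below. Across genes, the Pearson correlation of log2 CPM was 0.992 between replicates 2 and 3, against 0.947 between replicates 1 and 2 and 0.937 between replicates 1 and 3; genes are not independent replicates, so these values are descriptions. The biological coefficient of variation, edgeR's estimate of the typical spread of a gene's level between replicates, was 26.8% over the 3 libraries and 10.8% over replicates 2 and 3 alone. Each level is therefore given for every library, and, where replicate 1 moves a list's mean by more than 1.5 times, also without it. Highest and lowest are said of CPM by library totals. The share of all genes that were lowest or highest in replicate 1 is not given here. Counts of such members by list therefore lack a background, and only the position of the median gene can be set beside them. By totals, the median gene of replicate 1 lay at 0.799 of the mean of the other libraries (a log2 difference of -0.32), and by edgeR's TMM factors, which balance the bulk of genes, at 1.01, so a gene slightly lower in replicate 1 by totals may not be lower by TMM.

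Transcripts were detected from much of the annotation. Of 32520 genes, 27346, 27968 and 28541 had at least 1 count in replicates 1, 2 and 3, and 3210 had none in any library. A level of at least 1 CPM in all 3 libraries was reached by 19799 genes (60.9% of all genes), at least 10 CPM by 11208 (34.5%) and at least 100 CPM by 1148 (3.53%). These 3 shares are the background against which the counts of tissue genes are to be read. The median of the mean CPM was 4.42 over all genes and 16.2 over the genes at 1 CPM or more in every library.

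Reads were concentrated in few genes, and more so in replicate 1. The 10 genes with the highest mean CPM took 7.56%, 5.23% and 4.76% of counts in replicates 1, 2 and 3, and the 100 highest took 28.6%, 18.9% and 17.6% (mean 21.7% ± 5.99, SD, n = 3). The Wilson 95% interval of such a share was at most 0.0112 percentage points to either side and covers counting error only. Ordering each library by its own counts, 445 genes accounted for 50% of counts in replicate 1, compared with 1028 in replicate 2 and 1104 in replicate 3. The highest genes were also partly different ones. Of the 100 most counted genes of each library, replicates 2 and 3 shared 95, replicate 1 shared 68 with replicate 2 and 66 with replicate 3, and 64 were among the 100 of all 3.

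**Figure D1:**
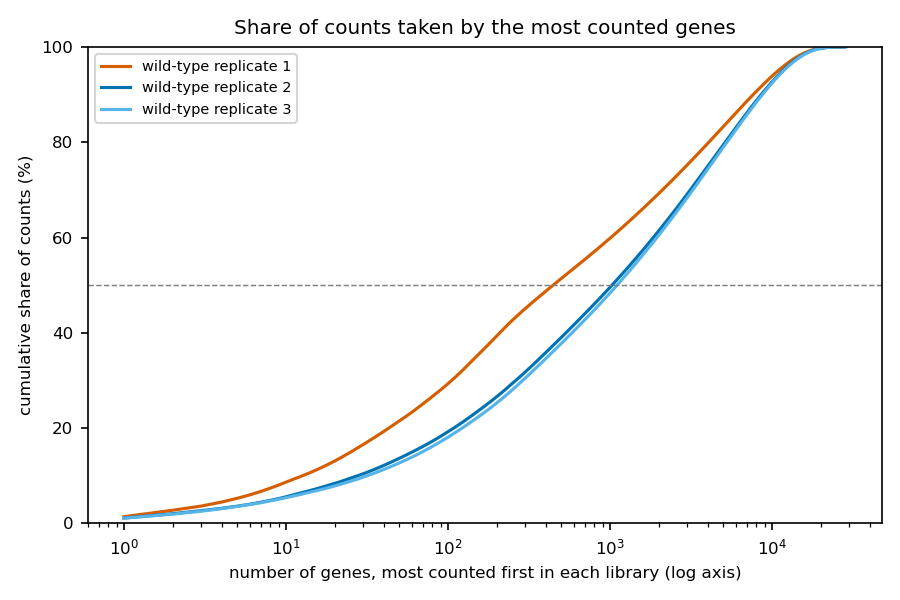
Cumulative share of counts (%, vertical axis) against the number of genes, most counted first in each library (log axis), 1 line per wild-type library. The line of replicate 1 reaches the dashed 50% line at 445 genes, and those of replicates 2 and 3 at 1028 and 1104 genes.

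The gene with the highest mean was krt4, a type II keratin of the superficial epidermis. It was counted at 13514, 9129.5 and 8423 CPM in replicates 1, 2 and 3 (mean 10355 ± 2758 CPM, SD, n = 3). In the second place stood mt-co1, the mitochondrially encoded subunit I of cytochrome c oxidase, with 7356, 11169.5 and 11010.3 CPM (mean 9845 ± 2157). These leading genes moved in opposite ways between libraries: krt4 was highest and mt-co1 lowest in replicate 1. The third was eef1a1l1, a translation elongation factor, with 7909, 6442.5 and 6094 CPM. The fourth was actc1b, a muscle alpha-actin, and its mean of 6787 ± 6433 CPM stood for libraries as different as 14124, 4125 and 2113 CPM. In replicate 1 actc1b was the most counted gene of all, and in replicate 3 it took fewer reads than 7 of the 10 genes with the highest means.

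The other genes among the 30 highest were of the same few kinds. Mitochondrially encoded mt-atp6, mt-co3, mt-co2 and mt-cyb were all lowest in replicate 1, although mt-co3 was highest there by TMM (4239, 4183 and 4194 CPM). The cytoplasmic beta-actins actb2 (4709, 3796 and 3732.5 CPM) and actb1 (4473.5, 3785 and 3764 CPM), the ADP/ATP carrier slc25a5, the elongation factor eef2b and the chaperones hspa8 and hsp90ab1 were also among them. Fast muscle genes were represented by pvalb2 and pvalb1 (calcium-binding parvalbumins), mylpfa and mylz3 (myosin light chains), atp2a1 (the calcium pump of the sarcoplasmic reticulum), tpma (a tropomyosin) and myhz1.1 (a myosin heavy chain). Of these 7 muscle genes, all but myhz1.1 were highest in replicate 1 and lowest in replicate 3. The epidermal keratins krtt1c19e and cyt1l, the apolipoproteins apoa1b and apoa1a, the cartilage collagen col2a1a, the ribosomal proteins rplp0, rps2 and rpsa and the RNA-binding protein gene cirbpb filled the remaining places. No gene of the neuron or photoreceptor lists was among them, and none was among the 100 highest.

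**Figure D2:**
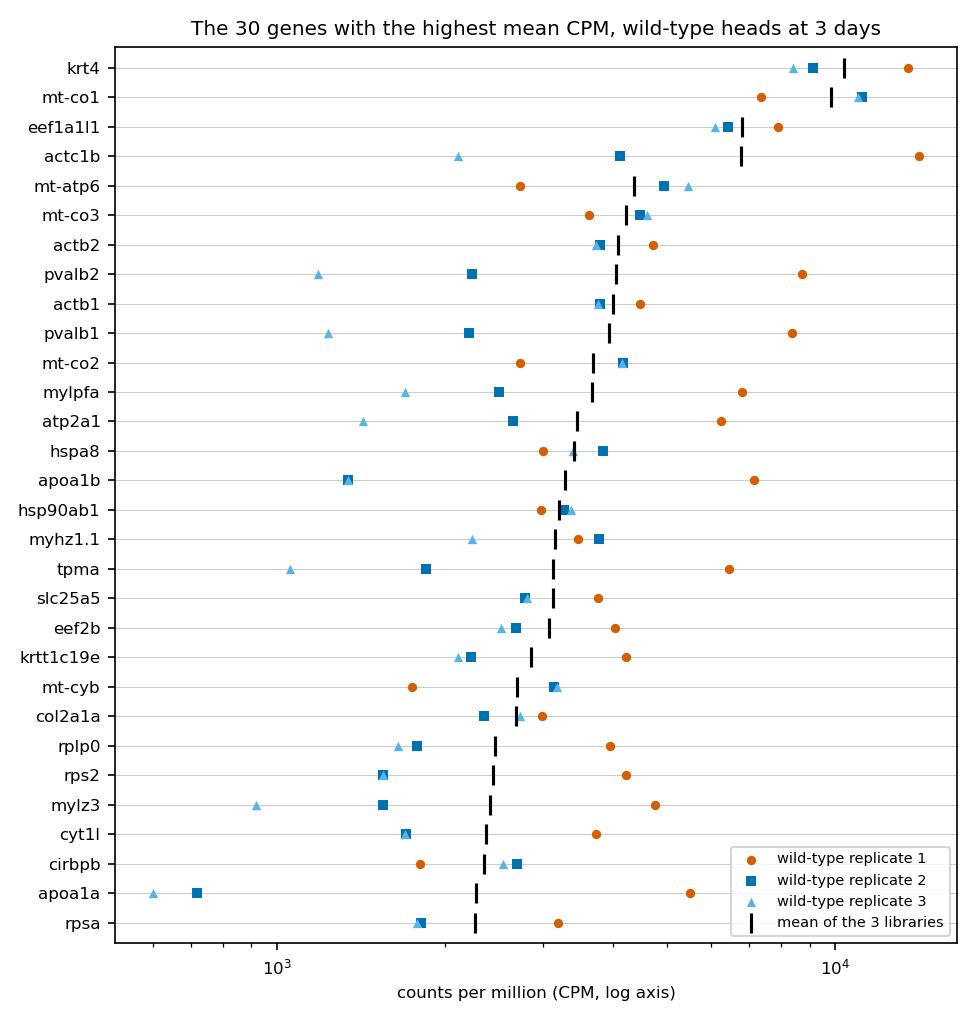
The 30 genes with the highest mean CPM in wild-type heads, CPM on a log axis; the symbols are the 3 libraries and the vertical bar is their mean. The symbols of replicate 1 lie far to the right for apolipoproteins and for muscle genes other than myhz1.1 (actc1b at 14124 CPM against 4125 and 2113). They lie to the left for the mitochondrially encoded genes (mt-co1 at 7356 CPM against 11169.5 and 11010.3).

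By the gene lists used here, the 100 highest genes comprised 26 cytosolic ribosomal proteins, 14 skeletal muscle genes, 11 cytoskeletal and housekeeping genes, 10 mitochondrially encoded genes, 8 lens genes, 6 epidermal genes, 4 translation factors, 3 cartilage genes, 3 genes of liver and yolk lipoproteins and 2 bone genes, with 14 genes in no list; a gene may stand in more than 1 list. Among those in no list was CR383676.1, which the reference table names malat1, a nuclear noncoding RNA, with 565, 1895 and 2287 CPM. Its level was lowest in replicate 1 and similar in the other libraries. The entry rfc1, a subunit of the clamp loader for DNA replication, ranked at 67 with 1929, 1079 and 1068 CPM, values within 5% of those of its neighbour in gene order, the ribosomal protein gene rpl9 (1927, 1047.5 and 1030.0 CPM). The 13 clustered protocadherin pairs and the other pairs with near-equal counts are given under the other observations, and such a level is uncertain.

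The protein synthesis machinery took the largest summed share of any list, a share that also depends on how many genes a list holds. All 83 cytosolic ribosomal protein genes reached 1 CPM in every library and 81 reached 100 CPM. Together they took 11.1%, 6.19% and 6.03% of counts in replicates 1, 2 and 3. Of these genes, 82 were highest in replicate 1, among them rps2 with 4228, 1548 and 1548 CPM. The 13 mitochondrially encoded genes, which code for parts of the respiratory chain, took 2.42%, 3.81% and 3.87%, and all 13 were lowest in replicate 1 by totals and 10 by TMM.

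Brain tissue was represented by many genes at moderate levels rather than by a few at high levels. All 32 pan-neuronal genes reached 10 CPM in every library and 19 reached 100 CPM, and their median mean level of 189.8 CPM was the highest of the 19 head lists. Their sum was 4493.5, 9346 and 10292 CPM (mean 8044 ± 3111, SD, n = 3), so neurons as listed took 0.804% of counts on average. Replicate 1 was low: 31 of the 32 genes were lowest there by totals and 25 by TMM. The most counted was tubb5, a beta-tubulin, with 495, 859.6 and 812 CPM, followed by the alpha-tubulin gene tuba1c with 430.5, 742 and 784 CPM. Both tubulin genes also stand in the cytoskeleton and housekeeping list. The neuronal sodium pump subunit gene atp1a3a had 217, 789 and 825 CPM, and rtn1a, coding for a reticulon of the endoplasmic reticulum, had 304, 595 and 629.7 CPM. The widest ratio between libraries was that of cplx2, whose complexin product binds the synaptic fusion machinery, with 36.8, 154.9 and 156 CPM. In each of these genes replicates 2 and 3 lay close together and replicate 1 below both.

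Among genes of transmitter use, 3 of the 4 highest were of neurons that use GABA or glycine. The GABA-synthesising enzyme genes gad2 (47.3, 208.6 and 228 CPM) and gad1b (55.98, 162.6 and 182 CPM), the vesicular transporter gene slc32a1 (50.7, 135 and 153 CPM) and slc6a9, a glycine transporter gene expressed mainly by glia (56.5, 175 and 176 CPM) had the highest means of the list. Of 21 such genes, 20 reached 1 CPM in every library; the exception was th2, a tyrosine hydroxylase gene of a small set of hypothalamic neurons, at 0.408, 0.876 and 1.21 CPM. The list's sum was 436, 1181 and 1260 CPM, with 19 of the 20 lowest in replicate 1 by totals and by TMM.

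Genes of neural progenitors and of glia were counted beside those of neurons. The progenitor list reached 1 CPM in every library for 22 of 23 genes, with a sum of 637, 998.5 and 1041 CPM. The transcription factor genes pax6a (67.8, 181 and 174 CPM) and sox2 (52.9, 79.7 and 79.7 CPM), the receptor gene notch3 (93.3, 138 and 155 CPM) and the RNA-binding protein gene msi1 (50.3, 104 and 102 CPM) led it, while ascl1b, a proneural factor, stayed under 1 CPM in all libraries. Of the cell cycle genes, read over the whole tissue, 25 of 26 reached 1 CPM in every library. The gene pcna, coding for the sliding clamp of DNA synthesis, had 354, 323 and 338 CPM, and mki67, a marker of cycling cells, had 161, 325 and 346 CPM. The 2 genes differed in pattern by totals, pcna being nearly level across libraries and mki67 low in replicate 1. By TMM pcna was highest in replicate 1 (414, 303 and 309 CPM) and mki67 still lowest there.

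Radial glia, the main glia of the young fish brain, gave 13 of 14 genes at 1 CPM or more and a sum of 2518, 3008 and 3074 CPM (mean 2866.5 ± 304), lowest in replicate 1 by totals but not by TMM (0.828 and 1.05 of the mean of the other libraries). The brain fatty-acid-binding protein gene fabp7a had 681.5, 791 and 808 CPM, and the glutamate transporter gene slc1a2b 346, 605 and 707 CPM. The intermediate filament gene gfap went the other way, with 278, 139 and 74.1 CPM, highest in replicate 1. All 13 myelin and oligodendrocyte genes reached 1 CPM in every library but none reached 100 CPM. The basic protein of myelin, mbpb, had 64.7, 67.0 and 66.8 CPM, and sox10, a factor of oligodendrocytes and neural crest, had 29.2, 27.15 and 26.5 CPM. Both were nearly level across libraries by totals and highest in replicate 1 by TMM.

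Regional brain genes covered the whole front-to-back axis. At 1 CPM or more in every library were 15 of 15 telencephalic genes, 20 of 20 diencephalic and hypothalamic genes, 19 of 19 midbrain genes and 23 of 24 cerebellar and hindbrain genes. For the telencephalon bcl11ba had 52.5, 96.5 and 113 CPM and foxg1a, a forebrain determinant, 17.6, 37.8 and 40.2 CPM. The diencephalic factor lhx9 had 38.6, 89.8 and 92.6 CPM, and otx2b, a fore- and midbrain factor, had 50.4, 97.5 and 95.8 CPM. For the cerebellum and hindbrain neurod1, also active in retina and hair cells, had 138, 296 and 312.5 CPM and cbln1, a granule cell factor, 28.1, 48.6 and 51.4 CPM. Replicate 1 was the lowest library for each of these genes, and the sums of the 4 lists there were 0.524 to 0.577 of the mean of the other libraries, below the median gene's 0.799.

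Neuropeptide and pituitary hormone genes had the lowest median of the 19 head lists, a mean level of 3.13 CPM. Of 31, 22 reached 1 CPM in every library, 5 reached 10 CPM and none 100 CPM. The granin gene scg2b (56.8, 145.6 and 140 CPM) and the peptide gene adcyap1b (49.0, 114 and 119.8 CPM) were the highest. The gonadotropin subunit gene lhb was listed at 0.0790, 0.0209 and 0.0693 CPM and fshb at 0, 0.0313 and 0 CPM. The thyrotropin subunit gene tshba had 0.540, 0.803 and 0.950 CPM, and hcrt, made in a handful of hypothalamic neurons, 0.237, 0.355 and 0.198 CPM. For fshb no library exceeded the floor of 3 counts, so its level was not detectable at this depth.

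The retina was well represented and, like the brain, low in replicate 1. Of 35 photoreceptor genes, 32 reached 1 CPM in every library and 10 reached 100 CPM, and their sum was 2520, 5895 and 7605 CPM (mean 5340 ± 2588). The opsins gave a full set of cone types and rods. The red cone opsin opn1lw2 had 449.8, 969.7 and 1247 CPM and the ultraviolet cone opsin opn1sw1 308.5, 842 and 1143 CPM. Rod opsin, rho, had 298, 456 and 649.8 CPM. The green cone opsin opn1mw1 had 138, 436 and 639.7 CPM and the blue cone opsin opn1sw2 144, 367 and 484 CPM. For all 5, replicate 1 was lowest and replicate 3 highest, so the order of libraries was shared while the spread was as large as the difference between neighbouring opsins. Within the duplicated families a single copy took most of the reads: opn1mw3 and opn1mw4 stayed under 0.14 CPM in every library, opn1mw2 had 9.07, 19.9 and 27.3 CPM, and the red copy opn1lw1 had 0.909, 1.75 and 1.97 CPM. Copies of such tandem families are close in sequence, and how reads matching more than 1 copy were counted is not given.

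Other retinal layers were detected throughout. All 25 inner retinal and Muller glia genes reached 1 CPM in every library, and all 25 were lowest in replicate 1 by totals and 22 by TMM, with a sum of 825, 1672 and 1772 CPM. The amacrine cell and neural crest factor tfap2a had 114, 281 and 275 CPM, pax6b 48.9, 167.5 and 207 CPM, and the bipolar cell factor vsx1 107, 149.7 and 155 CPM. The list of the retinal pigment epithelium shares genes with the melanophore list. Its sum, 1187, 955 and 982 CPM, was highest in replicate 1, unlike those of the neural retina lists. All 14 of 14 genes were detected, and by totals 8 were highest and 6 lowest there. By TMM these counts were 11 and 0. The pigment enzymes this tissue shares with body melanophores, tyrp1b (335, 274.5 and 278 CPM) and dct (135.8, 101.3 and 103.9 CPM), followed the order of the sum. The pigment gene pmela, also in both lists, was highest in replicate 1 by totals and by TMM (349, 162 and 157 CPM by TMM). The melanophore list was highest there too, with 1060, 781.5 and 801 CPM by totals. The sum therefore does not separate this tissue from melanophores. The visual cycle isomerase gene rpe65a, not shared with melanophores, had 90.7, 111 and 118 CPM and was lowest in replicate 1 by totals, but not by TMM (106, 104 and 108 CPM).

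The lens and the epidermis had the largest mean sums among head lists, though a sum depends on how many genes a list holds. Their means differed by less than the spread of either. The lens's 70 listed genes summed to 29770, 25432 and 25659 CPM (mean 26953 ± 2442), 2.69% of counts, with 58 genes at 1 CPM or more in every library and 35 at 100 CPM or more. The crystallins, which fill the lens fibre cells, fell into families of very unequal weight. The gamma M family, a branch of many near copies in fishes, summed to 15627, 12553.5 and 12758.5 CPM over 34 genes, of which 25 reached 1 CPM in every library. The 13 beta crystallins summed to 11744, 10532 and 10505 CPM, and the pair of gamma N genes to 1203, 1010.5 and 1020.4 CPM. The 3 alpha crystallins, relatives of small heat shock proteins, summed to only 30.4, 45.9 and 53.0 CPM. The most counted single lens gene, crybb1, had 2208, 1814 and 1732 CPM. Its relative crybb1l2 was level by totals, with 1575, 1539.6 and 1614 CPM, and highest in replicate 1 by TMM (1843, 1441 and 1473.5 CPM). At the other end crygm6 had no count in any library, crygm1 was counted only in replicate 3, at 0.00990 CPM, and crygm7 and the small heat shock gene cryaba stayed under 0.05 CPM in every library. The aquaporin gene mipa, expressed in lens fibres, was lowest in replicate 1, with 90.6, 192 and 207 CPM. It was among 20 lens genes at 1 CPM or more that were lowest there by totals, while 36 were highest. By TMM 10 were lowest, mipa among them, and 45 highest.

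The inner ear was represented at low levels. Of 36 ear and hair cell genes, 33 reached 1 CPM in every library, 12 reached 10 CPM and 1 reached 100 CPM, and their sum was 749, 823 and 912 CPM (mean 828 ± 81.7), lowest in replicate 1 by totals but not by TMM. The otolith matrix gene stm (starmaker) had 183, 232 and 254.5 CPM, more reads than any other of the list. Calretinin, calb2a, which is also made in brain neurons, had 84.1, 155 and 173 CPM, and the hair cell gene s100t had 64.9, 44.9 and 49.9 CPM. The parvalbumin gene pvalb9 stood apart with 111, 23.9 and 20.5 CPM. The tip-link cadherin cdh23 was counted at 0.395, 0.292 and 0.406 CPM, above the floor in each library yet under 1 CPM.

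Olfactory genes were near the bottom of the head lists. The sum of 15 was 237, 423.5 and 464 CPM, of which calb2b alone took 46.6%. None of the 141 odorant receptor genes of the or family reached 1 CPM in every library; they summed to 5.097, 23.8 and 25.1 CPM, and 23 had no count at all. None of 94 trace amine receptor genes and none of 19 olfC vomeronasal genes reached it either. The olfactory G protein gene gng13b had 76.0, 139 and 143 CPM, lowest in replicate 1, as was the sum of the or receptors.

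**Figure D3:**
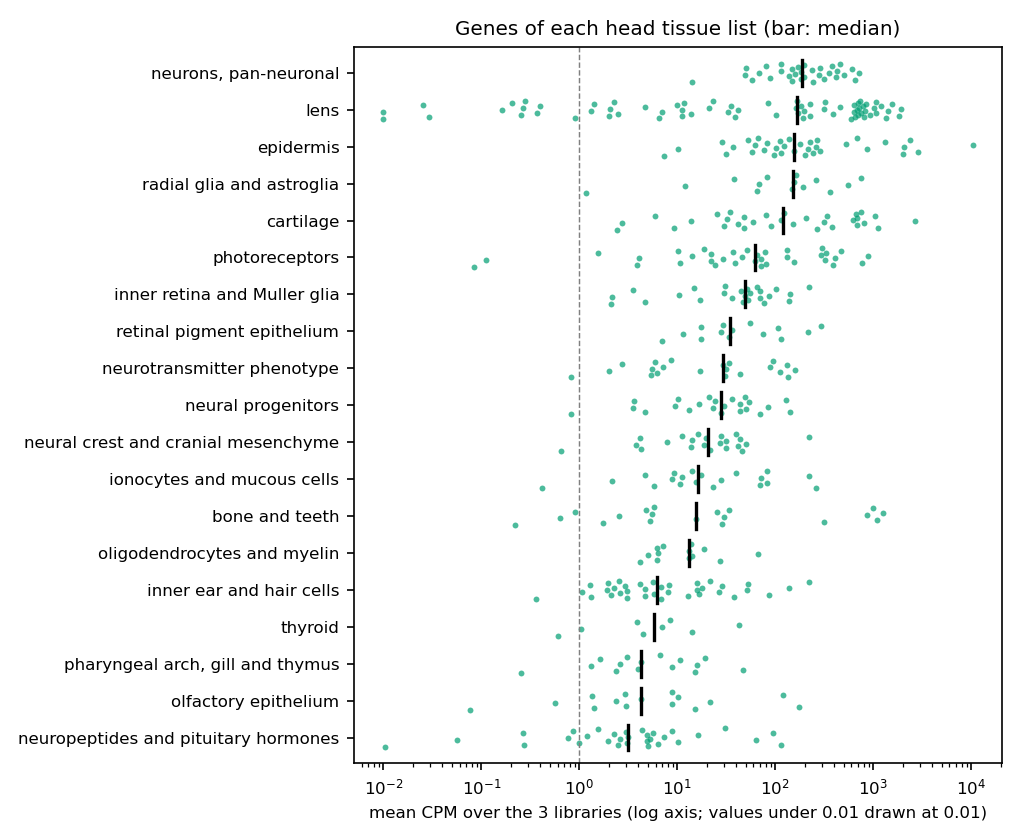
Mean CPM over the 3 wild-type libraries (log axis) of every gene in the 19 head lists, 1 point per gene, with the list's median as a bar and 1 CPM as a dashed line. The neuron list has the highest median (189.8 CPM) with few low genes, while the lens list spans from genes without a count to crybb1 at a mean of 1918 CPM.

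Head cartilage had the smallest relative spread of the tissue lists that summed to 1000 CPM or more. All 32 cartilage genes reached 1 CPM in every library and 14 reached 100 CPM, and they summed to 11112, 11289 and 12137 CPM (mean 11513 ± 548), 1.15% of counts. Type II collagen, col2a1a, the main fibre of cartilage, had 2989, 2347.5 and 2720.3 CPM. The type XI chain gene col11a1a had 1218, 1013.5 and 1140.3 CPM, the type IX chain gene col9a2 had 935, 748 and 738 CPM, and the matrilin gene matn1 had 723, 1117 and 1307 CPM. These 3 collagen genes were highest in replicate 1 and matn1 was lowest there. Other collagen genes of the list differed from the named ones: col11a2 (604, 823.5 and 847 CPM) and col9a1a (506, 689 and 675 CPM) were lowest in replicate 1, so the even sum held members of both patterns. Scaling also bears on it: replicate 1 lay at 0.949 of the mean of the other libraries by library totals and at 1.201 by TMM.

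Bone and tooth genes reached 1 CPM in every library for 16 of 19, and 9 reached 10 CPM, with a median mean level of 15.6 CPM. The list's sum of 6863, 3156 and 3992.5 CPM came mostly from collagen I chains, made also in skin and tendon, such as col1a1a with 2164, 618 and 984 CPM, and from sparc, a matrix protein of many tissues, with 1324, 992 and 943 CPM. The col1a1a mean of 1255 CPM became 801 CPM without replicate 1. The members with a mean under 1 CPM were 3: the osteoblast factor gene runx2a had 1.04, 0.939 and 0.752 CPM, and the osteocalcin genes bglapl and bglap had 0.290, 0.991 and 0.614 CPM and 0.342, 0.177 and 0.139 CPM. Neural crest and cranial mesenchyme genes reached 1 CPM in every library for 21 of 22, with foxc1b at 45.9, 45.4 and 45.5 CPM, level across libraries by totals. The crest marker crestin was under 1 CPM in each library.

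Skin was the other large contributor. All 35 epidermal genes reached 1 CPM in every library, 33 reached 10 CPM and 22 reached 100 CPM. They summed to 34949, 22170.4 and 21867 CPM (mean 26329 ± 7467), of which krt4 took 39.3%. The keratins krtt1c19e of basal cells (4213, 2231 and 2108 CPM), cyt1l (3722, 1701.5 and 1695 CPM) and cyt1 (3294, 1453 and 1518 CPM) came next, each highest in replicate 1 and near equal in the other 2 libraries. Ionocytes, the salt-transporting cells of the skin and gills, and mucous cells gave 19 of 20 genes at 1 CPM or more. The proton pump subunit gene atp6v1aa had 169, 302 and 318 CPM and the mucous cell gene agr2 92.3, 77.9 and 77.7 CPM. The ammonia channel gene rhcga differed between replicates 2 and 3 as few genes did, with 17.0, 55.8 and 12.1 CPM. Of 11208 genes at 10 CPM or more in every library, 18 differed by more than 2 times between those 2 libraries.

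Pharyngeal and thyroid genes were detected at low levels. Of 15 pharyngeal arch, gill and thymus genes, 13 reached 1 CPM in every library and none 100 CPM. The arch factor tbx1 led with 31.1, 55.97 and 52.9 CPM, and the T cell kinase gene lck had 0.132, 0.407 and 0.218 CPM. Of 8 thyroid genes 6 reached 1 CPM. Thyroglobulin, tg, the precursor of thyroid hormone and made in the thyroid follicles, had 3.27, 17.4 and 22.3 CPM, and the iodide transporter gene slc5a5 had 0.224, 0.824 and 0.782 CPM. Both were lowest in replicate 1.

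Skeletal muscle had the highest mean sum of the tissue lists, of which it was also the longest. Its median mean level of 98.7 CPM lay below those of several head lists, such as neurons (189.8 CPM), lens (165.2 CPM) and epidermis (153.9 CPM). The amount of muscle reads depended on the library more than for any head tissue. Of 95 genes 94 reached 1 CPM in every library, and the sum was 92160, 38633 and 24010 CPM (mean 51601 ± 35878), that is 9.22%, 3.86% and 2.401% of counts. Without replicate 1 the mean sum was 31321.5 CPM. In replicate 3 the lens list, at 25659 CPM, took more reads than muscle. After actc1b came pvalb2 with 8742, 2233 and 1185 CPM, pvalb1 with 8383, 2212 and 1233 CPM and mylpfa with 6809, 2504 and 1696 CPM. The inhibitory troponin gene tnni2a.4 had the widest ratio of the list, with 2538, 431 and 238 CPM. The highest library was 3.84 times the lowest, a ratio that no head list reached. Replicate 1 was highest for 67 of the 94 genes and lowest for 20, and by TMM for 73 and 17. Among those lowest in replicate 1 were the following, picked out after their values had been seen: the titin gene ttn.1 had 291, 808 and 545 CPM, and myhb, a myosin heavy chain gene, had 56.4, 246 and 287 CPM. Other myosin heavy chain genes, myhz1.3 and smyhc1, were highest in replicate 1. Heart genes, of which 21 of 22 reached 1 CPM, were led by ttn.1, which both muscle types use. The cardiac light chain gene myl7 had 31.9, 40.8 and 33.9 CPM, with replicate 1 lowest by totals and replicate 3 by TMM.

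Blood was seen mainly as embryonic haemoglobin. The 5 embryonic alpha globin genes summed to 1390.2, 995 and 548 CPM, and the 5 embryonic beta globin genes to 1292.5, 997 and 549 CPM. Both sums had the same order of libraries, with replicate 3 lowest. The leading copies were hbae3 (1223, 892.7 and 488 CPM) and hbbe1.1 (928, 767 and 420.1 CPM). The 5 adult globin genes together had 12, 4 and 21 counts, or 0.158, 0.0417 and 0.208 CPM. The erythroid factor gata1a had 1.12, 0.949 and 0.752 CPM, in the same order as the globins. The white blood cell list summed to 2315, 752 and 636 CPM, and without replicate 1 its mean of 1234 CPM became 694 CPM, but apoc1 and apoeb, lipid carriers also made by yolk and other cells, took most of it. The lysozyme gene lyz had 33.7, 16.9 and 9.64 CPM. Complement genes c1qa, c1qb and c1qc were all under 1 CPM in every library. Endothelial genes reached 1 CPM for 24 of 25, with cdh5, the adhesion molecule of vessel walls, at 27.05, 63.2 and 62.6 CPM.

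All genes of the pigment cell lists reached 1 CPM in every library, 15 of 15 for melanophores and 25 of 25 for iridophores and xanthophores. Of all genes, 60.9% did so. The melanophore genes tyrp1b and dct also stand in the retinal pigment epithelium list. The iridophore and xanthophore sum was 1457, 1351 and 1265 CPM, with replicate 1 highest for 6 of the 25 genes and lowest for 14 by totals, and by TMM highest for 14 and lowest for 8. The purine synthesis gene paics had 415, 114 and 171 CPM and the pteridine synthesis gene gch2 247, 164 and 114 CPM, both highest in replicate 1. The list's impdh1b, a purine synthesis gene (96.8, 161 and 162 CPM), and gpnmb (67.2, 166 and 149 CPM) were lowest there.

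**Figure D4:**
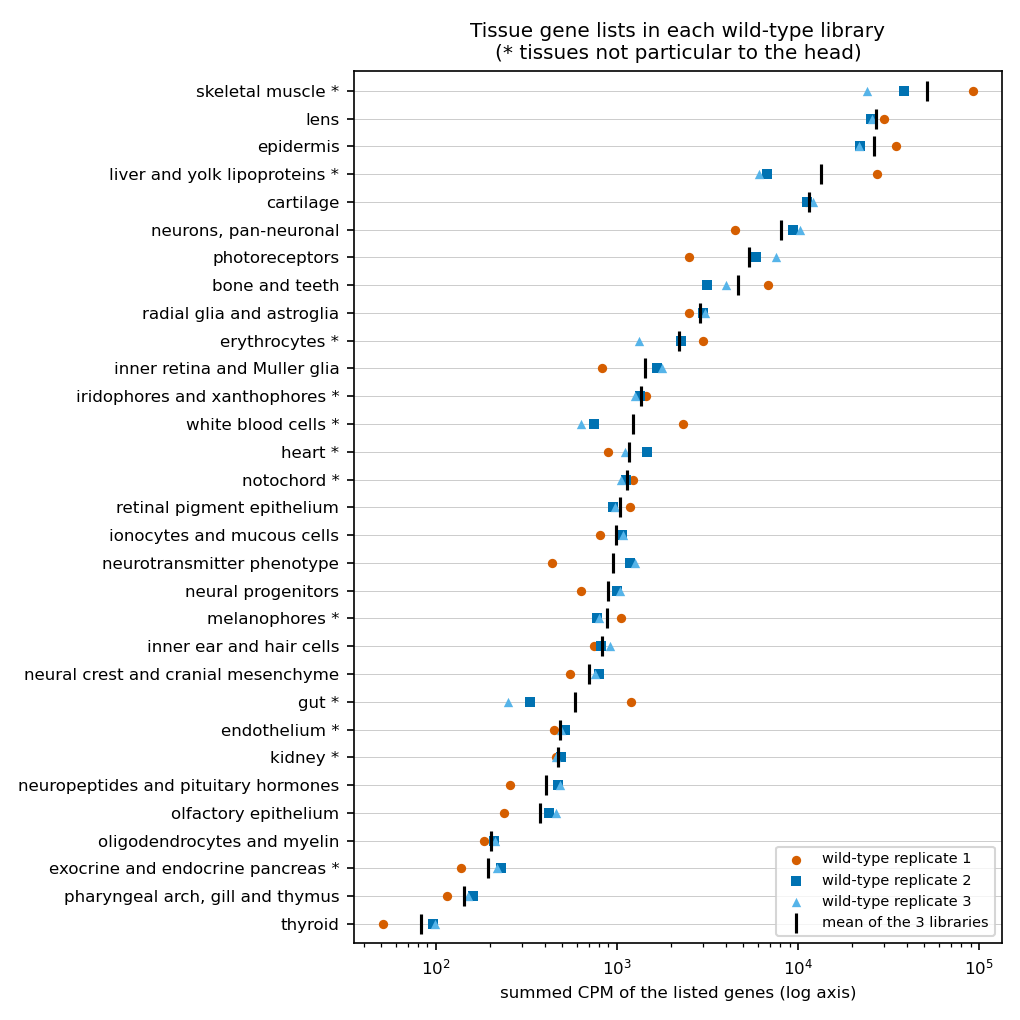
Summed CPM (log axis) of the 31 tissue lists in each wild-type library, with the mean as a bar; an asterisk marks tissues that are not particular to the head. Sums depend on how many genes a list holds, so libraries are to be compared within a row. Replicate 1 lies above the other libraries for muscle (92160 against 38633 and 24010 CPM) and liver and yolk lipoproteins (27375 against 6762 and 6080 CPM) and below them for neurons (4493.5 against 9346 and 10292 CPM) and photoreceptors (2520 against 5895 and 7605 CPM).

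Genes of organs behind the head were read as a check of the label. Liver and yolk lipoprotein genes reached 1 CPM in every library for 44 of 50 genes, with a sum of 27375, 6762 and 6080 CPM; the mean of 13406 CPM became 6421 CPM without replicate 1. The apolipoproteins apoa1b (7167, 1338 and 1338 CPM), apoa1a (5504, 718 and 600.3 CPM) and apoa2 (4514, 893 and 737 CPM) had the highest means of the list, and the layer around the yolk makes these as well as the liver. The gut list summed to 1191, 331 and 252 CPM (mean 591 CPM, and 292 CPM without replicate 1), led by apoa4b.2 (605, 83.7 and 55.3 CPM) and fabp1b.1 (300.4, 37.2 and 34.6 CPM), a lipid carrier and a fatty-acid-binding protein of enterocytes and yolk layer. Pancreatic genes had a median mean level of 3.23 CPM, against 4.42 CPM over all genes. Of 28 genes, 16 reached 1 CPM in every library (57.1%, beside 60.9% of all genes). At 10 CPM or more were 5 (17.9%, beside 34.5% of all genes). The trypsin gene prss59.2 was highest, at 18.3, 35.4 and 39.3 CPM. With a list sum of 138, 229 and 217 CPM, replicate 1 was not the highest library for this organ. Kidney genes reached 1 CPM for 16 of 21, and their sum of 459, 493 and 462 CPM was nearly level by totals, with 7 of the 16 highest and 7 lowest in replicate 1; by TMM replicate 1 lay at 1.22 of the mean of the others. The bicarbonate transporter gene slc4a4a, the most counted of the list, was lowest in replicate 1 with 68.7, 128.7 and 127 CPM. Without slc4a4a the kidney sum was 390, 364 and 336 CPM, highest in replicate 1. Transporters of the distal pronephric tubule, which lies in the trunk, were chosen after their values had been seen. The salt cotransporter genes slc12a3 (6.33, 0.0626 and 0.0891 CPM) and slc12a1 (2.53, 0 and 0.139 CPM) were above 1 CPM in replicate 1 and under 0.15 CPM in the other 2 libraries. Notochord genes, 13 of 14 of them, reached 1 CPM in all libraries, with a sum of 1236, 1118.5 and 1051 CPM, 6 genes highest and 7 lowest in replicate 1 by totals. The most counted, epyc, was lowest in replicate 1 with 233, 385 and 398 CPM, while col9a1b was highest there with 420.4, 123 and 70.31 CPM. Both genes stand in the cartilage list as well, and epyc took 29.8% of the notochord sum.

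The hox genes mark position along the body axis, low-numbered paralog groups reaching the hindbrain and high-numbered ones lying in the trunk and tail. Genes of the posterior groups in the hoxa and hoxd clusters are also expressed in the pectoral fins, just behind the head. All 13 genes of groups 1 to 4 reached 1 CPM in every library, with sums of 229, 313 and 289.5 CPM, replicate 1 lying below the mean of the others by totals and by TMM (0.762 and 0.964). The highest were hoxb3a (66.2, 100.9 and 93.1 CPM) and hoxa3a (36.9, 51.9 and 48.0 CPM). Groups 5 to 8 summed to 169, 208 and 173 CPM, replicate 1 lying below the mean of the others by totals and above it by TMM (0.888 and 1.12), with hoxb5a highest at 28.1, 50.8 and 47.2 CPM. Groups 9 to 13 summed to 116, 23.1 and 15.9 CPM over 23 genes, of which 6 reached 1 CPM in every library and 10 had a mean under 1 CPM. Here replicate 1 was 5.95 times the mean of the other 2 libraries. Group 10 showed the widest gap, with 34.3, 2.82 and 2.29 CPM. The trunk gene hoxb9a had 19.3, 4.99 and 2.58 CPM, and hoxb13a, of the tail end, had 1.26 CPM in replicate 1 and no count in the other libraries, while hoxc12a had 1.67, 0 and 0.00990 CPM. Replicates 2 and 3 thus held posterior hox transcripts only at low levels, and replicate 1 held more of them. The muscle and lipoprotein sums were also higher in replicate 1, and the neuronal, photoreceptor and inner retinal sums lower. Other lists went differently. Against the mean of the others, replicate 1 was lower for pancreas (0.6185 by totals, 0.7826 by TMM). The heart sum was lower too (0.688 and 0.870), but ttn.1, shared with skeletal muscle, took 47.2% of it. Without ttn.1 the heart sums were 601, 667 and 571 CPM, with replicate 1 between the others by totals. Replicate 1 was higher for the retinal pigment epithelium (1.226 and 1.552), a list that shares genes with the melanophore list (1.34 and 1.697). Kidney changed side with the scaling, but without slc4a4a its sum was highest in replicate 1 by totals. Whether the heads of replicate 1 were cut further back was not tested.

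**Figure D5:**
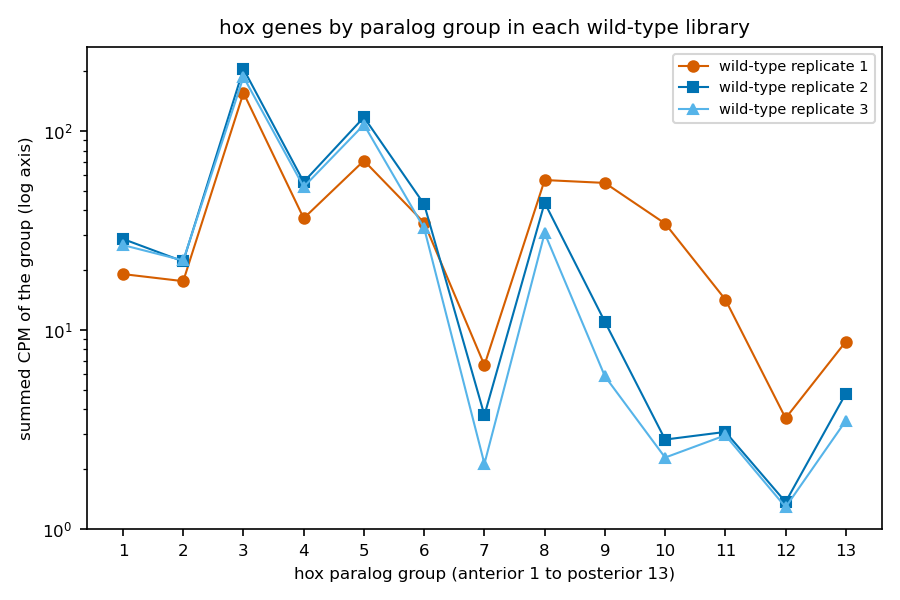
Summed CPM (log axis) of the hox genes of each paralog group, from anterior group 1 to posterior group 13, 1 line per wild-type library. By totals replicate 1 lies below the other libraries in groups 1 to 5, though by TMM groups 2 and 3 lie level with their mean (1.00 of it), and above them from group 7 on, with the widest gap in group 10 (34.3 against 2.82 and 2.29 CPM).

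The spread over libraries can be summed up over all well-counted genes. Of the 11208 genes at 10 CPM or more in every library, 1822 (16.3%) had a highest library over 2 times the lowest, and replicates 2 and 3 were within 1.2 times of each other for 9972. Of the 1666 genes with a mean of 100 CPM or more, 436 differed over 2 times, and in 435 of these replicate 1 was the outermost library, as the lowest in 313 and the highest in 122. By TMM the split turned: of 397 such genes replicate 1 was the lowest in 143 and the highest in 252. By list, only members at 10 CPM or more in every library were counted, as for the 16.3%. Of these, 18 of 32 pan-neuronal genes, 21 of 25 photoreceptor genes and 49 of 83 muscle genes differed by over 2 times between libraries. The same held for 1 of 46 lens genes and 5 of 27 cartilage genes.

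The 15 genes with a mean of 100 CPM or more and the widest ratio included 3 clone-named entries highest in replicate 1, FO704772.1, FO704772.2 and CU855694.1. The clone-named entry CR383676.2 was lowest in replicate 1, at 16.1 CPM against 206 and 263 CPM, and tnxba, a tenascin of connective tissue, had 20.2, 146 and 161 CPM. The other 13 were highest in replicate 1, among them the apolipoprotein gene apoea (1053, 127 and 100.4 CPM), the muscle methyltransferase gene smyd1a (289.6, 68.9 and 31.1 CPM), the creatine synthesis gene gatm (893.5, 109.9 and 109.4 CPM) and the muscle genes mybphb and mylpfb. At the other extreme were 10 genes of at least 10 CPM with the smallest coefficient of variation, which was at most 0.366%. Such values are smaller than counting error alone would give, usp37 for example having 2449, 3089 and 3253 counts. The 10 were picked as the smallest of 11208 genes, so these values do not measure how steady the genes are. The deubiquitinase gene usp37 had 32.3, 32.2 and 32.2 CPM, the helicase gene ruvbl2 had 67.0, 67.0 and 67.3 CPM, and the translation factor gene eif4h 109.5, 109.8 and 110.2 CPM. The others were evi5b, cenpi, ssx2ipa, zgc:174938, mtmr2, dhrs12 and atp6v1f. Level CPM here means level by library totals, and relative to the median gene at 0.799 these 10 genes lay higher in replicate 1.

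The 45 genes that stand in more than 1 list, such as tyrp1b in both the retinal pigment and the melanophore list, were counted in each.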

How the data were processed

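Polyadenylated RNA of wild-type heads was measured in 3 libraries. The values are raw counts for 32520 Ensembl genes, as deposited by the authors. The submitters' processing notes mention GRCz11 as the build, and STAR 2.7.3, Subread with featureCounts 1.6.4, and DESeq2 as tools, with no order or settings. A table of normalized values was not used here.

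CPM were computed from the raw counts and the library totals (Python 3.11.15, pandas 2.3.3). TMM factors and the common dispersion came from edgeR 4.0.16, and size factors from DESeq2 1.42.0 (R 4.3.3). The dispersion step was tested on simulated data. A check for duplicate libraries found none, with a chi-square per gene of 41.0 or more for each pair. A share's Wilson 95% interval covers counting error only.

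Gene lists (45 lists, 1209 names) were matched by the file's gene name and otherwise by the reference table's symbol. A gene was found for 1176 names, by the file's own name for 1156 of them, giving 1146 different genes; 33 names had none. The 4094 genes that share a name were kept apart by identifier. Named genes were mainly drawn by a rule, which took the 30 with the highest mean CPM. From each list it took the 4 highest, the member with the widest ratio between libraries and the members under 1 CPM. It also took the 10 genes with the smallest coefficient of variation and the 15 most variable genes. Not all of these are printed, and some named genes, such as col11a2 and col9a1a, lie outside the rule. The libraries, lists and rules were chosen with earlier results of these data known. The families within lists, the near-equal neighbours, the genes said in the text to be picked afterwards, and the per-gene values by TMM were chosen after the values had been seen. Figures were drawn with matplotlib 3.10.9.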

Additional observations from a re-analysis of the deposited data

How the results depend on the processing

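Scaling and the choice of library were the settings that mattered. The spread over libraries, 26.8% as a biological coefficient of variation, ranged from 10.8% to 32.5% when 1 library was left out, and replicate 1 decided it, since only its removal lowered the value. With other scaling or another filter it was 28.5% and 28.4%. Of the 100 highest genes, 99 were shared with the ranking by TMM and 99 by DESeq2 size factors, 87 with a ranking by the median, 90 without mitochondrially encoded genes, and 85, 96 and 96 without replicates 1, 2 and 3. The share of the 100 highest genes was 18.7% to 23.8% when a library was left out. The number of genes detected was 21286 at 0.5 CPM, 14584 at 5 CPM and 26593 at 1 count. By TMM, by DESeq2 size factors and without mitochondrially encoded genes the mean tissue sums were 0.955 to 1.09 times the main values. None moved by 1 SD, but that SD includes the gap between replicate 1 and the others, so it is a wide yardstick. Without replicate 1 the sums of muscle, liver and yolk, white blood cells and gut fell by over 1.5 times, to 31321.5, 6421, 694 and 292 CPM. By TMM or DESeq2 size factors the position of replicate 1 against the mean of the others changed side for radial glia, myelin, inner ear, cartilage, endothelium, kidney, hox groups 5 to 8, immediate early and heat shock genes. The planned levels per coding length were not run. No paired analysis was possible because the values come from 1 group and from no test. Depth limits only the lowest genes, such as fshb and crygm1, which lie at or near the floor of 3 counts.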

Other observations

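Some neighbouring genes had nearly the same counts. Of 359 pairs of genes next to each other, or with 1 gene between them, in the RefSeq order of the GRCz12tu assembly (18743 genes with a name of their own placed there), and both at a mean of 100 CPM or more, 17 were within 5% of each other in all 3 wild-type libraries; the rule was made after such values had been seen. Of these pairs, 13 joined genes of the protocadherin cluster 1 on chromosome 10. Clustered protocadherins are neuronal adhesion molecules whose alternative first exons are spliced to shared constant exons. Among the genes so paired pcdh1g1 had 114, 446 and 490.1 CPM and pcdh1gc5 had 124, 483 and 528 CPM. The 22 genes of this cluster in the table summed to 2044, 7556 and 8302 CPM. Whether reads of shared exons were counted for several of these genes was not tested, so the sum may hold the same reads more than 1 time. Like the neuronal genes they were lowest in replicate 1, but entries with near-equal counts are not to be read as separate observations.

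Another such pair was rfc1 and rpl9, given in the report. The other subunit genes of the same clamp loader lay far lower, from rfc2 at a mean of 20.9 CPM to rfc5 at 34.8 CPM. The third was bcl2l16 and the beta-tubulin gene tubb2b on chromosome 8, with 1136, 1364 and 1320 CPM and 1129, 1358 and 1315 CPM. The fourth was dnajc7, a co-chaperone gene, and aclya, coding for ATP citrate lyase, with 87.9, 136 and 133.5 CPM and 85.9, 133 and 131 CPM. The last was crygm2d4 and crygm2d3, tandem lens crystallin copies. Whether reads were counted for both genes of a pair was not tested.

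Vitellogenin genes, whose yolk proteins are made by the mother's liver, were at 3.08, 0.678 and 1.08 CPM as a sum of 7 genes, and none reached 1 CPM in every library, although other lipoprotein genes were among the most counted of all. Immediate early genes, which respond within minutes to handling or activity, summed to 358, 335 and 464 CPM. The factor gene egr1 was highest in replicate 3, with 40.8, 55.5 and 95.6 CPM, and nr4a1 was highest in replicate 1, with 25.9, 14.3 and 9.81 CPM, so the list's members did not share an order of libraries.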
